A study of Mus with 4 samples.

Results

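The genes described here are 10 genes of protein folding in the endoplasmic reticulum (ER) and of the unfolded protein response, read from a table of 54532 mouse genes. They were taken by Ensembl identifier from a list set by gene function. The selection rule uses no measured value, but the list was drawn up with earlier results of these data known. The list holds the transcription factors Xbp1 (ENSMUSG00000020484), Atf4 (ENSMUSG00000042406) and Ddit3 (ENSMUSG00000025408), and the general chaperones Hspa5 (ENSMUSG00000026864) and Hsp90b1 (ENSMUSG00000020048). The other members are the lectin chaperones Calr (ENSMUSG00000003814) and Canx (ENSMUSG00000020368), and the disulfide isomerases Pdia3 (ENSMUSG00000027248), Pdia4 (ENSMUSG00000025823) and Pdia6 (ENSMUSG00000020571). All 10 passed the filter on low counts that left 15510 genes for testing.

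Read counts came from bulk RNA sequencing of liver sinusoidal endothelial cells (LSECs), the cells that line the blood channels of the liver. All mice received carbon tetrachloride (CCl4), a liver toxin. The control group (CTL) comprised 2 libraries, and the group with knockout of Pofut1 (P1KO), which the series title places in the endothelium, comprised 2. POFUT1 is an ER enzyme that fucosylates EGF-like repeats, Notch receptors being the best-known substrates, and the comparison of P1KO with CTL addresses whether its loss changed the folding machinery of the compartment it works in. The sources used here do not give strain, sex, age, the driver of the deletion, the control alleles, the CCl4 schedule or whether libraries came from separate mice. The spread behind each p-value is thus that between these libraries, and it may be technical.

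Library totals ranged from 17464769 to 17918834 counts. The libraries are called CTL1, CTL2, KO1 and KO3 as in the table. The number of KO3 matches no sample title, so it was placed in P1KO by its name alone. Heart ventricles are named in the extraction protocol, against liver and LSECs in the labels for tissue and cell type. Of 225 other genes on the fixed lists of pathway genes, cell type markers and Pofut1, 0 could be matched to an identifier. The labelled cell type, the loss of Pofut1 and the remaining ER genes were therefore not analysed here. CTL libraries had a biological coefficient of variation of 3.22% and P1KO libraries one of 12.1%, so the P1KO pair was the more variable one.

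Proteins that enter the ER are folded by chaperones, and their disulfide bonds are formed and rearranged by isomerases. When unfolded proteins accumulate, the sensors IRE1, PERK and ATF6 raise the capacity for folding and for degradation of misfolded proteins, and reduce translation. IRE1 splices the Xbp1 transcript into the form that encodes the active factor, PERK favours translation of Atf4, and ATF4 induces Ddit3, which encodes CHOP. Gene counts do not separate spliced from unspliced Xbp1 and do not measure translation of Atf4. Chaperone transcripts such as Hspa5 are widely used readouts of the response, and in endothelium the same machinery folds secreted and surface glycoproteins.

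Of the 10 genes, Xbp1 passed the test and was 1.20-fold higher in P1KO, and the other 9 did not pass. Hspa5, the chaperone most often read as the marker of ER stress, was at 1.12-fold with a 95% interval of 1.01 to 1.25. Ddit3 was at 1.25-fold with an interval of 1.06 to 1.48, and Atf4 at 1.02-fold with an interval of 0.936 to 1.12. The highest upper bound among the 10 genes was that of Ddit3 and the lowest lower bound that of Canx, 0.886. A change of 1.5-fold thus lay outside each of the 10 intervals in the fit to all 4 libraries. Without CTL1 the interval of Ddit3 widened to 0.985 to 1.68 and without CTL2 to 0.932 to 1.58, so there it included such a change. The interval of Ddit3 also included a change of 1.5-fold without KO3 and with the CTL libraries summed. All these intervals are for single genes and are not adjusted for the number of genes tested. In bulk samples like these, fewer cells of a type and less RNA per cell cannot be told apart.

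The count of 1 higher and 0 lower among 10 genes is set against a background of 9.68% of tested genes higher, 9.84% lower and 19.5% in either direction (quasi-likelihood test of edgeR, with p adjusted over all 15510 genes and a threshold of 0.05). Mean levels of the 10 genes ran from 18.7 to 1080 CPM (reads per gene scaled to the size of the library), and among the 7687 tested genes in that range 15.9% were called higher and 11.2% lower. The share of the 10 genes called higher was thus near the background, and says nothing particular to them. The median log2 fold change of the 10 genes was 0.12, against -0.01 over all tested genes and 0.04 in the same range of levels. Fitted values were above 0 for 9 of the 10 genes, against 48.9% of all tested genes and 57.1% of those in the same range of levels. Both this count and the median moved with the P1KO libraries. Without KO1, 6 of the 10 fitted values were above 0 and the median was 0.07, and without KO3 these were 9 and 0.22. At an unadjusted p below 0.05 stood 5 of the 10 genes, against 33.7% of all tested genes and 42.7% of those in the same range of levels.

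**Figure D1:**
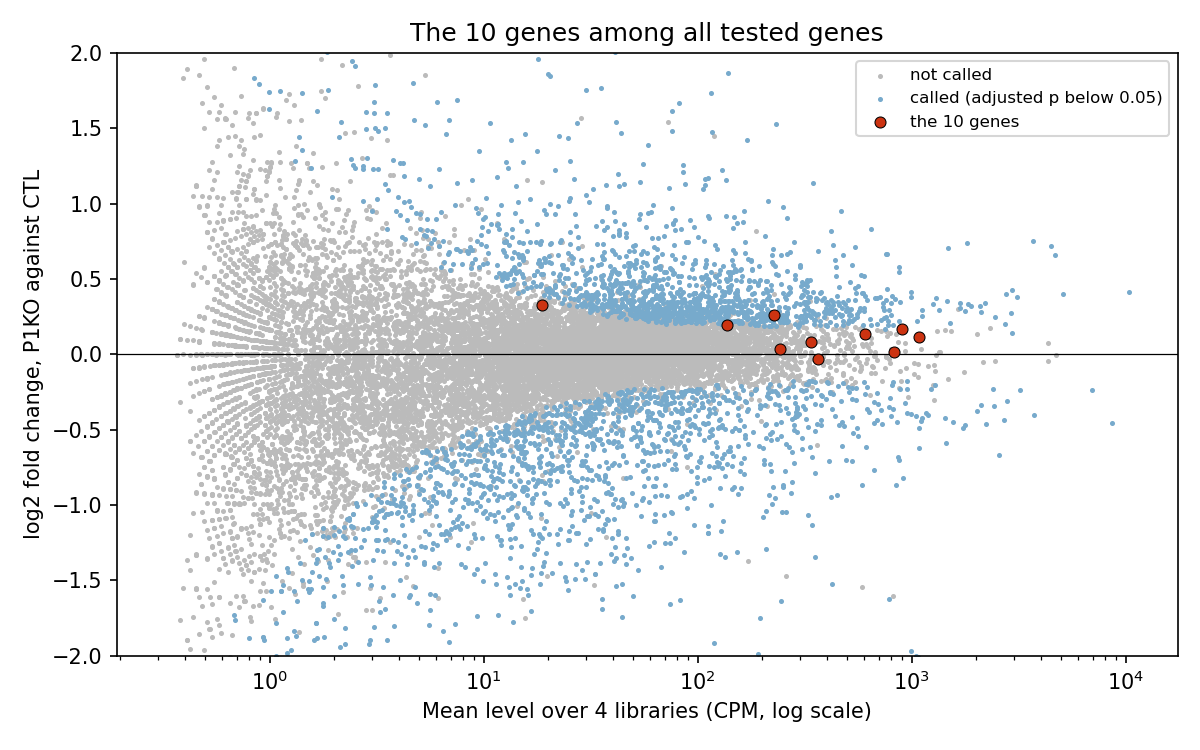
Mean level over the 4 libraries (CPM, log axis) against the log2 fold change of P1KO against CTL for 15510 tested genes, with called genes in blue and the 10 ER genes in red. The red points lie between -0.03 and 0.32. The vertical axis ends at 2 in each direction, which leaves out 160 genes.

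Both P1KO libraries lay above both CTL libraries for Xbp1, Ddit3, Hspa5, Calr and Pdia4, and the groups overlapped for Atf4, Hsp90b1, Canx, Pdia3 and Pdia6. The 5 of 10 genes without overlap, all higher in P1KO, compare with 30.5% of all tested genes that lay higher without overlap and 62.6% without overlap in either direction. In the range of levels of the 10 genes, 41% lay higher and 69.3% did not overlap.

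**Figure D2:**
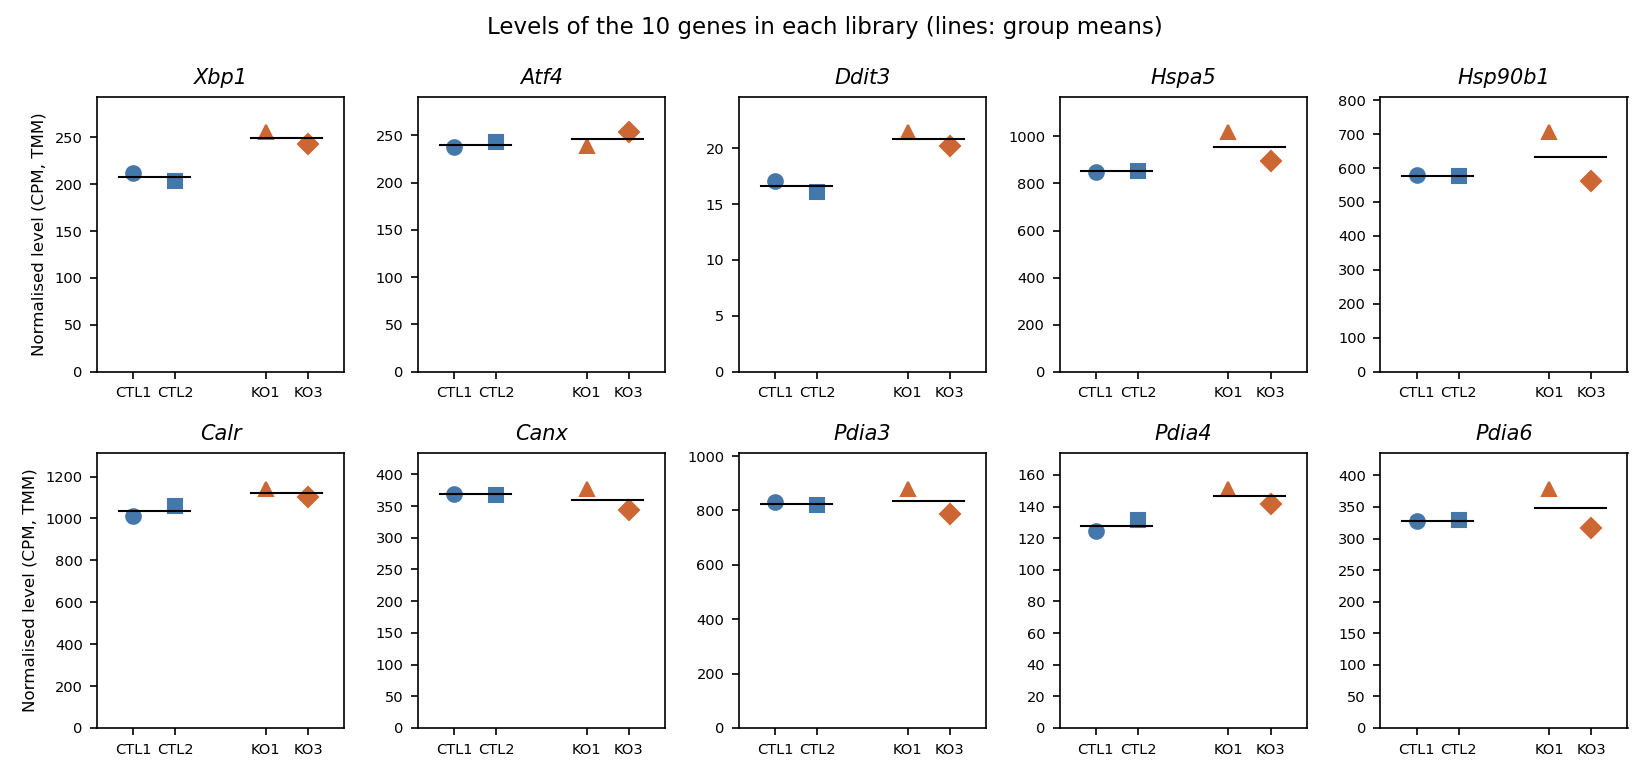
TMM-scaled level (CPM, axis from 0) of each gene in CTL1 and CTL2 (blue) and KO1 and KO3 (orange), with lines at the group means. For Xbp1 both orange points stand above both blue points, whereas for Hsp90b1 the KO3 point lies below the blue points and the KO1 point above them.

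Among the transcription factors, Xbp1 is the target of the IRE1 branch and drives genes of ER expansion, folding and degradation. CTL1 and CTL2 held it at 212 and 203 CPM, KO1 and KO3 at 255 and 243 CPM. The libraries of the genotypes were thus apart, and both pairs were close within themselves. Xbp1 rose from 208 ± 6.10 CPM in CTL to 249 ± 8.91 CPM in P1KO (SD, n = 2 each), by 0.26 ± 0.06 (SE) on the log2 scale, at an adjusted p of 0.0191 in edgeR. The call was lost without CTL1 (log2 fold change 0.29, edgeR adjusted p = 0.205) and without CTL2 (0.23, adjusted p = 0.274). It was kept without KO1 (log2 fold change 0.22) and without KO3 (0.30). With the CTL libraries summed into 1 the edgeR adjusted p of Xbp1 was 0.235, and without a filter on low counts it was 0.0503.

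Atf4 encodes the factor that PERK and the other kinases of the integrated stress response act through. The controls stood at 238 and 242 CPM, KO1 at 239 CPM and KO3 at 253 CPM. The KO1 value lay between those of the controls. On the log2 scale Atf4 differed by 0.04 ± 0.06 (SE), at an edgeR adjusted p of 0.705.

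Ddit3 encodes CHOP, a factor linked to cell death under lasting ER stress. The controls held 300 and 288 reads of it, and KO1 and KO3 held 377 and 359. Scaled, these were 17.1, 16.1, 21.4 and 20.2 CPM, so both P1KO libraries were above the controls. The level was 16.6 ± 0.680 CPM in CTL and 20.8 ± 0.886 CPM in P1KO (SD, n = 2 each). The log2 fold change of 0.32 ± 0.10 (SE) was the largest of the 10 genes, and with an edgeR adjusted p of 0.0705 it did not pass. Ddit3 was the least covered of the 10 genes, with a counting error of 5.89% in its smallest library against 0.750% for Calr. The log2 fold change of Ddit3 was 0.37 without KO3, 0.28 without KO1, 0.36 without CTL1 and 0.28 without CTL2. In the DESeq2 test on all 4 libraries its adjusted p was 0.233.

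Hspa5 encodes BiP, the Hsp70 chaperone of the ER lumen, which also holds the stress sensors inactive. CTL1 and CTL2 held 850 and 853 CPM, KO1 held 1017 CPM and KO3 held 895 CPM. KO1 stood well above the other libraries and KO3 only a little above the controls. The group levels were 852 ± 2.33 CPM and 956 ± 86.5 CPM (SD, n = 2 each), apart by 0.17 ± 0.07 (SE) on the log2 scale, at an edgeR adjusted p of 0.118. Relative to the CTL mean, the log2 difference of Hspa5 was 0.26 for KO1 and 0.07 for KO3.

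Hsp90b1 encodes GRP94, the Hsp90 of the ER, which folds integrins and Toll-like receptors. Levels were 580 and 575 CPM in the controls, 705 CPM in KO1 and 561 CPM in KO3. The P1KO libraries thus fell on opposite sides of the controls. The SD was 3.51 CPM in CTL and 102 CPM in P1KO (n = 2 each), and the log2 fold change of 0.13 ± 0.10 (SE) had an edgeR adjusted p of 0.386. Without KO1 the log2 fold change was -0.04, and without KO3 it was 0.29.

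The lectin chaperones hold newly made glycoproteins by their trimmed glucose residue until they are folded. Calr, the soluble one, was at 1014 and 1059 CPM in the controls (CTL1 and CTL2), at 1143 CPM in KO1 and at 1100.4 CPM in KO3. Both P1KO libraries were higher, by a log2 fold change of 0.11 ± 0.05 (SE), and the edgeR adjusted p was 0.145. Canx, the membrane-bound one, was at 369 and 368 CPM in the controls, at 378 CPM in KO1 and at 343 CPM in KO3. The P1KO values of Canx surrounded those of the controls, with a log2 fold change of -0.03 ± 0.06 (SE) and an edgeR adjusted p of 0.749. It was the only one of the 10 genes with a fitted value below 0.

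Pdia3 encodes ERp57, the isomerase that works with the lectin chaperones. The controls held 830 and 819 CPM, against 880 CPM for KO1 and 788 CPM for KO3, so the P1KO libraries again stood on both sides of the controls. The log2 fold change of 0.02 ± 0.06 (SE) had an edgeR adjusted p of 0.885. Pdia4, which encodes ERp72, was at 124 and 132 CPM in the controls, at 151 CPM in KO1 and at 141 CPM in KO3. Both P1KO libraries were above both controls, with a log2 fold change of 0.19 ± 0.06 (SE) and an edgeR adjusted p of 0.0746. Pdia6, which encodes P5, an isomerase that associates with BiP, was at 327 and 330 CPM in the controls, at 379 CPM in KO1 and at 317 CPM in KO3. KO1 alone was high for Pdia6, and its log2 fold change of 0.08 ± 0.08 (SE) had an edgeR adjusted p of 0.529.

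For 6 of the 7 chaperones and isomerases the P1KO libraries were further apart than the controls, Calr being the exception. The same held for 61.8% of all tested genes and 65% of those in the same range of levels. All 7 chaperones and isomerases were higher in KO1 than in KO3, and of all 10 genes only Atf4 was not. Over all tested genes 52% were higher in KO1, and 57.4% of those in the same range of levels. The median log2 difference of KO3 against KO1 was -0.16 for the 7 folding factors, -0.01 for all tested genes and -0.02 in the same range of levels. That of CTL2 against CTL1 was 0.01 for the 7 folding factors and 0.00 for all tested genes. Hsp90b1 differed most, being 25.6% higher in KO1, followed by Pdia6 at 19.5% and Hspa5 at 13.7%. Of the 7687 tested genes in the same range of levels, 6.7% had a larger difference between the P1KO libraries than Hsp90b1, 11.4% than Pdia6 and 21.2% than Hspa5. Counting alone gives the difference of Hsp90b1 between KO1 and KO3 an SD of 0.02 on the log2 scale, against a measured difference of -0.33.

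**Figure D3:**
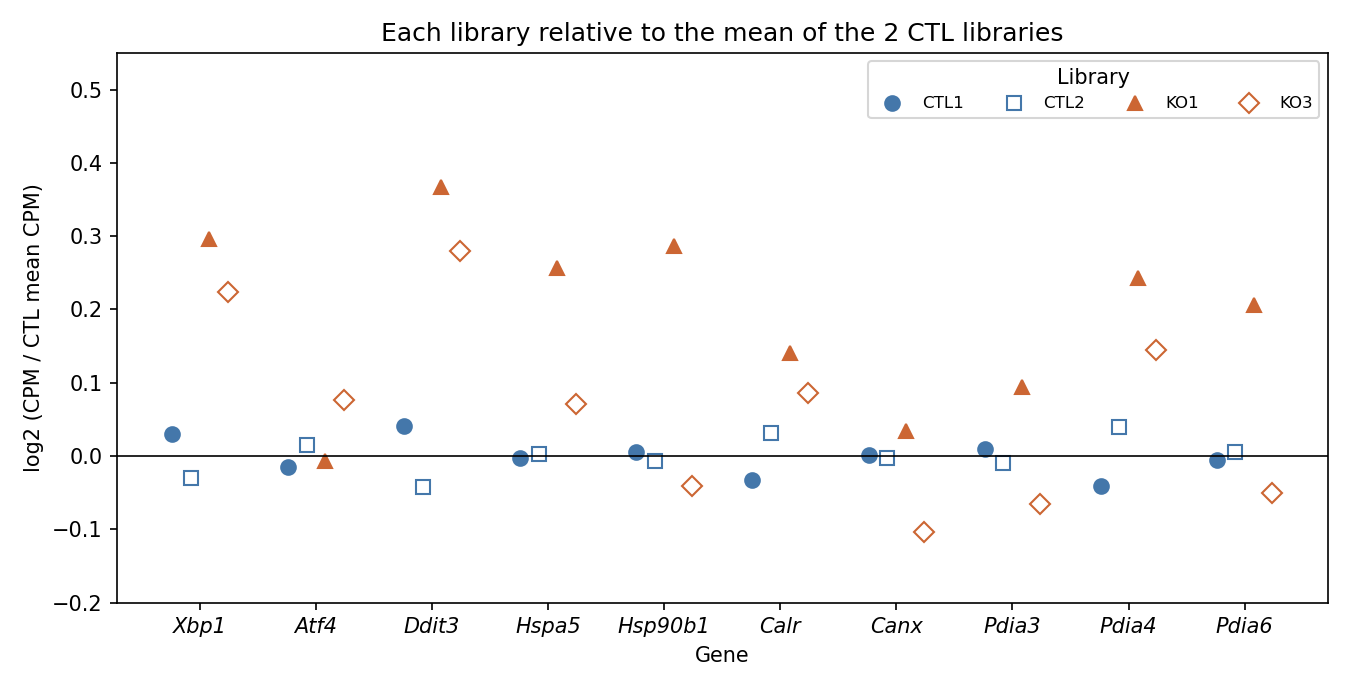
Log2 ratio of each library to the mean of the 2 CTL libraries, by gene, for CTL1 and CTL2 (blue) and KO1 and KO3 (orange). For the chaperones and isomerases KO1 lies above KO3 in each case, with the widest gap at Hsp90b1, and the same order is seen for Xbp1 and Ddit3. Both P1KO points lie above both CTL points for Xbp1, Ddit3, Hspa5, Calr and Pdia4.

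With KO3 left out, edgeR called 8 of the 10 genes higher and 0 lower, against a background of 17% higher and 16.6% lower. The genes not called were Atf4 and Canx. With KO1 left out, Xbp1, Hspa5, Calr and Pdia4 were called higher and Canx and Pdia3 lower, against 17.2% and 17.5%. Both fits take the spread from the CTL pair and assume that the remaining P1KO library varies like it. Their backgrounds cover all tested genes and were not computed for the range of levels of the 10 genes. Without CTL1 and without CTL2, where the spread comes from the P1KO pair, 0 of the 10 genes were called, against 0.832% and 0.774% of tested genes in either direction. At an unadjusted p below 0.05 the count in these fits was 1 without CTL1 and 0 without CTL2.

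**Figure D4:**
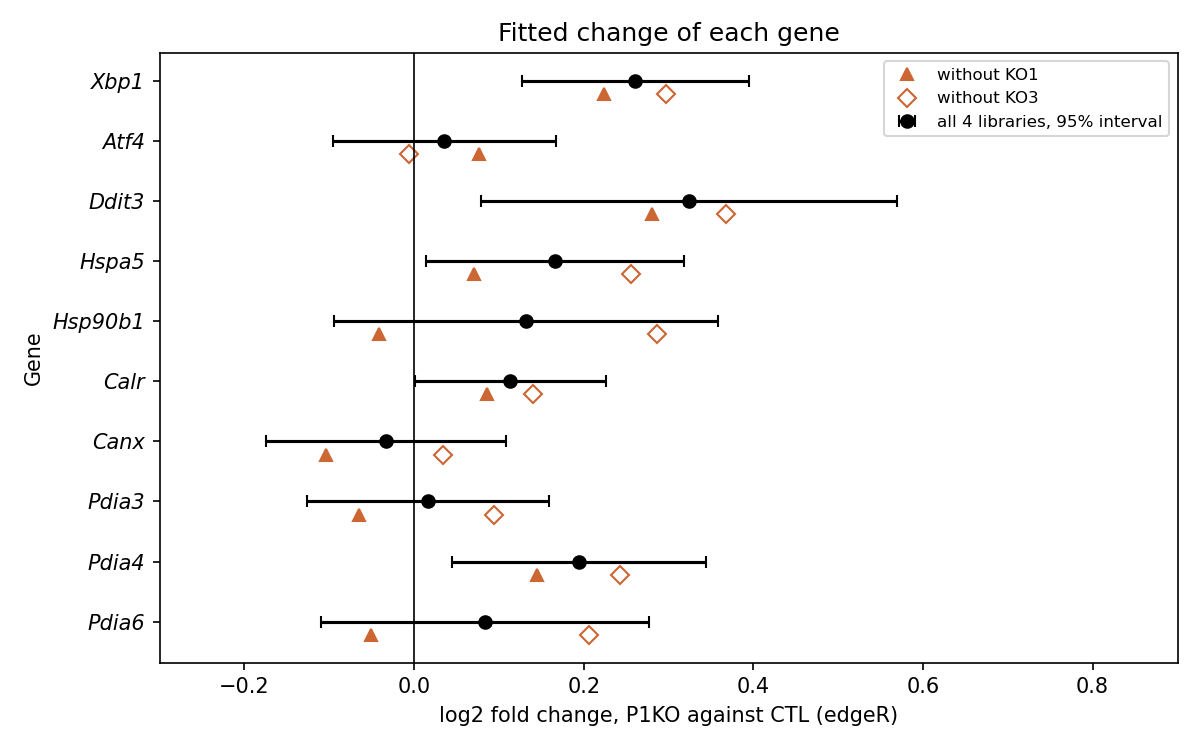
Log2 fold change of P1KO against CTL for each gene in the fit to all 4 libraries (black, with 95% interval), without KO1 (triangles) and without KO3 (open diamonds). The interval of Xbp1 runs from 0.13 to 0.39, and for Hsp90b1, Canx, Pdia3 and Pdia6 the values without KO1 fall below 0.

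The share of each library taken by the 10 genes together was 0.459% and 0.461% for the controls, 0.508% for KO1 and 0.468% for KO3. The 7 folding factors alone took 0.412%, 0.415%, 0.457% and 0.416%. In these summed shares KO1 was thus the library that stood apart, and KO3 was near the controls. Single genes differed from the sum. By scaled level, KO3 was above both controls for Xbp1, Ddit3, Atf4, Hspa5, Calr and Pdia4. It was below both for Hsp90b1, Canx, Pdia3 and Pdia6.

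Within the reads of the 10 genes, which no scaling of the libraries affects, both P1KO libraries had higher shares than both controls of Xbp1, Ddit3, Hspa5 and Pdia4 and lower shares of Canx and Pdia3. The shares of the other 4 genes overlapped. For the 6 of 10 genes without overlap no background of like shares was computed, and no test was made of the shares. Scaled levels, a different measure, did not overlap for 62.6% of all tested genes and 69.3% in the same range of levels. Shares of 1 total depend on each other, since a rise of some genes lowers the shares of the rest. Canx made up 8.09% and 8.004% of these reads in the controls, against 7.30% for KO1 and 7.36% for KO3. Pdia3 made up 18.2% and 17.8% in the controls, against 17.03% and 16.9% in KO1 and KO3. In KO1 these lower shares were not lower levels, since Canx at 378 CPM and Pdia3 at 880 CPM stood above both controls. In KO3 the levels of Canx (343 CPM) and Pdia3 (788 CPM) were below both controls. Xbp1 took 4.65% and 4.42% in the controls and 4.94% and 5.204% in KO1 and KO3.

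The ratio of Ddit3 to Atf4 reads was 0.0719 and 0.0665 for CTL1 and CTL2, 0.0896 for KO1 and 0.0797 for KO3. The ratio of Xbp1 to Hspa5 reads was 0.249, 0.238, 0.251 and 0.271 in the same order. That of Xbp1 to Atf4 was 0.892, 0.839, 1.07 and 0.959, and that of Hspa5 to Hsp90b1 was 1.46, 1.48, 1.44 and 1.59. In the first 3 of these 4 ratios each P1KO library was above each control, for Xbp1 to Hspa5 by a narrow margin in KO1. In the last the groups overlapped. The first 3 ratios share genes with each other, and no background of like ratios was computed. These pairs were chosen after their values were seen, and 2 libraries a group allow no exact permutation p below 0.333, so they are given as a description.

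In the mouse assembly GRCm38.p6 the genes lie on 7 chromosomes. Xbp1 is at chromosome 11, 5520641 to 5525993, and Canx at chromosome 11, 50293957 to 50325673. Hspa5 is at chromosome 2, 34772090 to 34776529, and Pdia3 at chromosome 2, 121413902 to 121438687. Ddit3 is at chromosome 10, 127290793 to 127296291, and Hsp90b1 at chromosome 10, 86690841 to 86705444. Atf4 is at chromosome 15, 80255184 to 80257545, Calr at chromosome 8, 84842088 to 84846931, Pdia4 at chromosome 6, 47796141 to 47813512, and Pdia6 at chromosome 12, 17266589 to 17284785. All 10 are annotated as protein-coding, and counts are given per gene and not per transcript. Hspa5 overlaps Rabepk, Ddit3 overlaps Mbd6 and Mars1, Pdia3 overlaps Catsper2, Pdia4 contains Mir704 and Pdia6 overlaps Atp6v1c2. These overlaps are of whole gene spans and not of exons. No source used here gives the strand setting of the counting. Whether reads from the overlapped stretches entered the counts of these 5 genes is therefore not known. Xbp1 overlaps no other annotated gene.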

How the data were processed

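The authors deposited 1 table of raw read counts per Ensembl gene with 4 library columns, all of which were used. The submitters' processing notes name mm10 as the build, and as tools featureCounts 1.5.0-p3, HISAT2 2.0.5, fastp and CASAVA. The sources used here give neither the annotation release, the strand setting nor the treatment of reads with several matches. Total counts per library ranged from 17464769 to 17918834.

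From these counts, CPM scaled with TMM and the P1KO against CTL comparison were computed with edgeR 4.0.16 in R 4.3.3. The steps were filterByExpr, TMM and the quasi-likelihood F-test, fitted to the 4 libraries without covariates. Benjamini-Hochberg adjustment covered 15510 genes, and a gene with an adjusted p below 0.05 was called. Where pairs of libraries were set against other genes, a prior count of 2 was added before taking log2 CPM. The SE was taken as the absolute log2 fold change over the root of F, and intervals use the degrees of freedom of that test. The code was tested on simulated counts with the same spread in both groups, which does not cover the unequal spread of these libraries.

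Symbols of the 10 genes came with the fixed list. The reference table (GRCm38.p6, the assembly behind mm10, 49997 genes) holds 0 Ensembl identifiers and gave coordinates by symbol. Genes on 18 other lists could not be matched, so the rule for naming genes took all 10 members and nothing else from the lists. The members and lists were chosen with earlier results of these data known. Alternatives were DESeq2 1.42.0 and limma-voom (limma 3.58.1), the latter also with a separate spread per group. Further ones were other scalings and filters, a minimum change of 1.5-fold, summed controls and each library left out.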

Additional observations from a re-analysis of the deposited data

How the results depend on the processing

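The main counts were 1 of the 10 genes higher and 0 lower, with 1501 and 1526 over all genes. The rise of Xbp1 passed in 6 of the 9 alternatives that left no library out. These refit the same libraries and are not independent of each other. With 1 library left out, its log2 fold change ran from 0.22 to 0.30. It did not pass in any fit where the spread came from the P1KO pair alone. Without a filter on low counts 0 of the 10 genes were called, and over all genes 810 higher and 823 lower. Against a minimum change of 1.5-fold 0 were called (118 and 152 over all genes), and with the CTL libraries summed 0 (70 and 82). In these 3 fits the number of the 10 genes at an unadjusted p below 0.05 was 5, 0 and 1. Leaving out 1 library gave 0 to 8 of the 10 genes higher and 0 to 2 lower, with 54 to 2675 and 66 to 2716 over all genes. The median log2 fold change of the 10 genes then ran from 0.07 to 0.22. Signs changed for 5 genes over these fits, whose log2 fold changes ran from -0.042 to 0.29 for Hsp90b1, from -0.065 to 0.094 for Pdia3, from -0.050 to 0.21 for Pdia6, from -0.0062 to 0.076 for Atf4 and from -0.10 to 0.034 for Canx. With library totals in place of TMM, Pdia3 was at -0.00067. The cause was not tested. The spread of the P1KO pair limits what 2 libraries a group can show, and for Ddit3 counting error adds to it. No paired analysis was possible because KO3 carries a number that no title holds, which leaves the groups with 1 number in common. Counts for the other pathway genes could not be computed, and a search for promoter motifs was not run.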
